A study of Mus musculus with 9 samples.

Results

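The genes described here drive and time the cell cycle in mouse colon organoids: 49 of the 48795 genes in the deposited table, chosen from a list of cell cycle and DNA replication genes, found by their Ensembl identifiers and named with GENCODE M21. All 49 were present and all passed the filter on low values. They fall into 15 genes of DNA replication (S phase), 19 genes of G2 and mitosis (G2/M) and 15 regulators (cyclins D and E, cyclin-dependent kinases and their inhibitors, and transcription factors). Organoids were grown from colonic crypts in WENR medium (Wnt-3A, Noggin, R-spondin-1 and EGF), a mix that keeps epithelium in a stem cell-rich state, and came from wild-type (WT) mice or from mice lacking the aryl hydrocarbon receptor (AHR KO). AHR is a transcription factor switched on by small ligands, and FICZ (6-formylindolo[3,2-b]carbazole) is one of high affinity. Organoids received 5 nM FICZ or the solvent DMSO for 4 hours. There were 2 libraries of WT with DMSO (replicates 2 and 3), 3 of WT with FICZ (replicates 1, 2 and 3), 2 of AHR KO with DMSO (replicates 1 and 3) and 2 of AHR KO with FICZ (replicates 1 and 3), 9 in all. The study's methods name mice with a floxed Ahr allele and Cre recombinase driven by Villin, which acts in epithelial cells only. The methods call the organoid cultures biological replicates, but no source used here ties a library to a mouse or says which DMSO and FICZ libraries share one, so p-values measure the spread between these libraries.

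In cycling cells the licensing factors Cdc6 and Cdt1 load the MCM helicase onto replication origins, E2F transcription factors switch on the S phase genes, and cyclin E with Cdk2 starts replication. Genes of G2 and mitosis, among them cyclin B, Cdk1, the Aurora kinases and the kinesins, are switched on later by B-Myb (Mybl2) and FoxM1. D-type cyclins with Cdk4 or Cdk6 link growth signals to E2F by phosphorylating the retinoblastoma protein, and in the colon crypt such cycling is confined to stem and progenitor cells near the base.

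Values are RSEM counts scaled between libraries by the study, called signal here; the total per library ran from 23177058 to 25033827. Ahr itself had a signal of 783 to 858 in the 5 libraries labelled WT and of 1346 to 1443 in the 4 labelled AHR KO, so its gene total went against the labels. That total sums over all exons and cannot tell a deleted exon from the rest, and so does not check the deletion. Cyp1a1, the classical AHR target, was added after its values were seen: it had 0 to 5.84 under DMSO in the 4 libraries of both genotypes, 6987 to 7958 under FICZ in WT, and 100.3 and 138.8 under FICZ in the libraries labelled AHR KO. The 8 epithelial markers summed to between 300210 and 328382 in each library, against 1.9 to 6.8 for 7 fibroblast, 6.9 to 18.4 for 8 immune and 0 to 5.3 for 3 endothelial markers, and 4 of the immune markers were at 0 everywhere. In a bulk sample, fewer cycling cells cannot be told apart from less RNA per cycling cell.

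The members were well expressed in every library. Per kilobase of their longest protein-coding transcript, the highest mean signal over the 9 libraries was that of Ccnd1 (cyclin D1) at 6152, followed by the replication clamp Pcna at 4589, Ccnd2 at 3513 and the topoisomerase Top2a at 2756. The lowest were E2f7, an atypical E2F that represses transcription, at 103.1, the GINS helicase subunit Gins2 at 120.1 and E2f2 at 162.8. Together the 49 genes took 0.727% to 0.844% of each library's signal. Across the 9 libraries a member's log2 signal ranged over 0.438 in the median, from 0.238 for Cdk2 to 1.204 for Ccne2. The median SD within groups was 0.088 for S phase genes, 0.082 for G2/M genes and 0.107 for regulators, on the log2 scale.

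**Figure D1:**
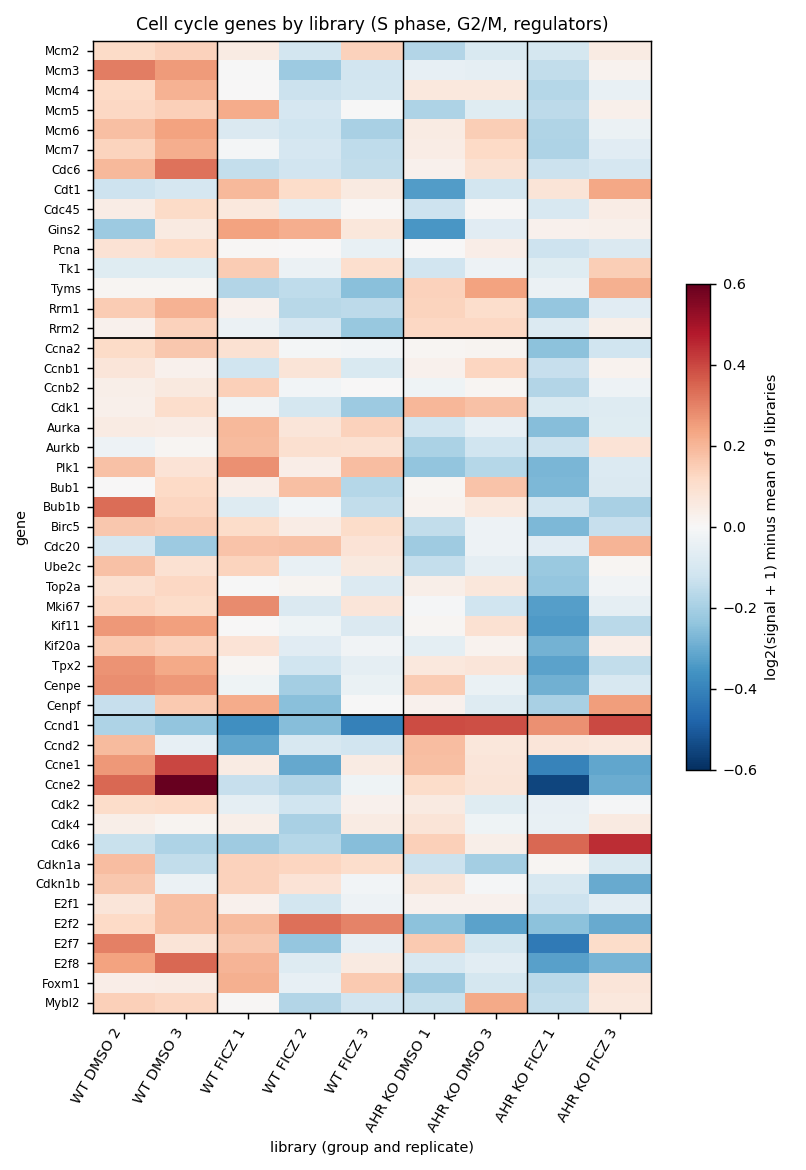
Rows are the 49 genes, split by black lines into S phase, G2/M and regulators, and columns are the 9 libraries in their 4 groups. Colour gives log2(signal + 1) minus the gene's mean over the 9 libraries, red above and blue below. Both WT DMSO libraries have 41 of 49 genes above their mean, and AHR KO FICZ replicate 1 has 6.

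The promoters of the members were searched for short motifs, since S phase and G2/M genes are known for different ones. RefSeq entries on GRCm38.p6, 250 bases before to 50 bases after the start site, were matched for 39 of the 49 genes. Matches on either strand were counted for E2F sites (TTTGGCGC, TTTGCCGC, TTTCGCGC or TTTCCCGC), for the cell cycle genes homology region, CHR (TTTGAA or TTCGAA), for the CCAAT box (CCAAT) and for the core of the AHR response element (GCGTG). An E2F match was present in 6 of 13 S phase promoters (46.2%), in 1 of 15 of G2/M genes (6.7%) and in 3 of 11 of regulators (27.3%), against 2.3% of all 27025 promoters in the table and 4.2% of the 9607 promoters of tested genes. A CHR match was present in 12 of 15 G2/M promoters (80%), in 3 of 13 S phase promoters (23.1%) and in 1 of 11 of regulators (9.1%), against 19.4% and 13.9%. CCAAT was found in 93.3% of G2/M and 69.2% of S phase promoters, against 37.9% and 39.3%. The AHR core was found in 20 of the 39 (51.3%), near the 52.8% of tested genes and above the 32.5% of all promoters, whose median GC content was lower (52.7% against 61% for tested genes and 58.7% for the members). A match is a description of letters and not evidence of binding.

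Mcm6 and Cdk1 were added after the matches were seen, because Mcm6 holds the most E2F matches and Cdk1, like Mcm7, holds both E2F and CHR matches. The sequences below belong to these and to the 2 members of each class with the largest FICZ changes in WT among those that were called and have an entry. They run 5′ to 3′ in the direction of the gene on GRCm38.p6, and capitals mark E2F and CHR matches.
Cdc6, chr11:98907901-98908200 (+): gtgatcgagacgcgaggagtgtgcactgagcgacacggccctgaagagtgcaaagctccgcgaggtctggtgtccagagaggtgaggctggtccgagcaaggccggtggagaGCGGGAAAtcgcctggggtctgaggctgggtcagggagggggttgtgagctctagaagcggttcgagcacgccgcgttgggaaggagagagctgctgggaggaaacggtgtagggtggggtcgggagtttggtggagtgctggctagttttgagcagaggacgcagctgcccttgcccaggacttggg
Mcm3, chr1:20820263-20820562 (-): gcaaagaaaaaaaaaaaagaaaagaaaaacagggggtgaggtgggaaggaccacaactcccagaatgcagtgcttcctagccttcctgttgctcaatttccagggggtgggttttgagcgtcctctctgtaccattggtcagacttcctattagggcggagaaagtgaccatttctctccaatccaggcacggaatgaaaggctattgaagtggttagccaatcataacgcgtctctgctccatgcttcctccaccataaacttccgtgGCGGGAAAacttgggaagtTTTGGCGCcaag
Mcm6, chr1:128359656-128359955 (-): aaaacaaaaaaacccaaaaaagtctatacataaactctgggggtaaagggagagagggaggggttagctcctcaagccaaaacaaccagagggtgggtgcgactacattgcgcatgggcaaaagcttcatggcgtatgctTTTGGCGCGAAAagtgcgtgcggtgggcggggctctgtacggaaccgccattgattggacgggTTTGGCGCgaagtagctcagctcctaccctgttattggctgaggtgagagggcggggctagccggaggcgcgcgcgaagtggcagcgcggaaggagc
Cenpe, chr3:135212313-135212612 (+): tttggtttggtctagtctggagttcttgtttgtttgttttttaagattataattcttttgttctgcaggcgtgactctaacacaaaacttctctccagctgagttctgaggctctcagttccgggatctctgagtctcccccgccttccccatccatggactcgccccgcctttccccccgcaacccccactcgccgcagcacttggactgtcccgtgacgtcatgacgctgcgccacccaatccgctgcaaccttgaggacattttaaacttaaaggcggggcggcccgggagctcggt
Bub1b, chr2:118597961-118598260 (+): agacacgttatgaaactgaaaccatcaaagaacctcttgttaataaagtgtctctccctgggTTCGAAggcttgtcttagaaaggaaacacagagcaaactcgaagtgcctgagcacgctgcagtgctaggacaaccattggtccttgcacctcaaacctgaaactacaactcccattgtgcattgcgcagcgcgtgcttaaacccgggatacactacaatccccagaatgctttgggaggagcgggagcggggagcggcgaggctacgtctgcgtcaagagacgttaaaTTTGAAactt
Cdk1, chr10:69352863-69353162 (-): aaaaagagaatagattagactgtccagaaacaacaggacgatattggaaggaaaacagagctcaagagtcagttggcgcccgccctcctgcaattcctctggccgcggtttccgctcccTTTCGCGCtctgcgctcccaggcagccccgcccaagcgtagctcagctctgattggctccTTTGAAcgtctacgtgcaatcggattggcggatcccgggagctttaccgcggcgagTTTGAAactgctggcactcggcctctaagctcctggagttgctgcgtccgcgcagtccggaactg
Ccne1, chr7:38107441-38107740 (-): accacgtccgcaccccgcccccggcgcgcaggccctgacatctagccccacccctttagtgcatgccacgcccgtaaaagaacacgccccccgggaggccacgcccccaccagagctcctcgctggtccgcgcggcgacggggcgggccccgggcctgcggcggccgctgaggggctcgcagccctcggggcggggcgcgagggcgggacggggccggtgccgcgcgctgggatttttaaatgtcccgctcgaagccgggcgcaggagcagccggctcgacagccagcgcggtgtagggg
E2f8, chr7:48881547-48881846 (-): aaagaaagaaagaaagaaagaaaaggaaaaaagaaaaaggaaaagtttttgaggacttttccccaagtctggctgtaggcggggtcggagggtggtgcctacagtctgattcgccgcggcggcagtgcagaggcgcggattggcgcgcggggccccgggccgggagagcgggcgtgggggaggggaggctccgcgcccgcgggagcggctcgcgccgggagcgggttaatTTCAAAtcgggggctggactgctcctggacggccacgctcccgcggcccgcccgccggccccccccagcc

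Counting the first transcribed base of the RefSeq entry as 1, Cdc6 had its E2F match from base -138 and Mcm3 had matches from bases 20 and 39. GENCODE M21 starts Cdc6 at 98907801, before the window printed above, so that match lies inside the gene as annotated there. Mcm6 had 3, of which those from bases -110 and -106 overlap, and 1 from -47. Of the G2/M genes, Bub1b had CHR matches from bases -188 and 41, and Cdk1 had CHR matches from -71 and -15 with an E2F match from -131. E2f8 had a CHR match from base -20. Cenpe and Ccne1 held neither motif in this window, and Ccne1 held 3 AHR cores, from bases -184, -168 and -151. No promoter entry was used for Ccne2.

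1 library stood apart for these genes. In AHR KO FICZ replicate 1, 6 of the 49 members lay above their own mean over the libraries, and 0 of the 19 G2/M genes did, with a mean deviation of -0.22 on the log2 scale over that class. In AHR KO FICZ replicate 3 the G2/M genes deviated by -0.04 in the mean and 22 of the 49 members lay above their mean. The WT DMSO libraries were the other extreme, with mean deviations over all members of 0.10 and 0.11. Results that rest on these libraries are given below with the calls lost, or the counts that remained, when each was left out.

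With FICZ, part of the replication machinery was lower in WT organoids. The MCM helicase subunits Mcm3, Mcm4, Mcm6 and Mcm7, the loader Cdc6, the ribonucleotide reductase subunits Rrm1 and Rrm2, and the E cyclins Ccne1 and Ccne2 all fell, to between 0.869 (Rrm2) and 0.653 (Ccne2) of the DMSO level, and the mitotic genes Cenpe, Bub1b, Tpx2, Kif11 and Cdk1 fell as well. Of the 49 members, 15 fell and 1 rose (limma on log2(signal + 1), Benjamini-Hochberg adjusted p under 0.05 over the 12741 genes tested, two-sided). Of all genes tested 15.7% fell and 15.1% rose, so the share of members that fell, 30.6%, was above that background and the share that rose, 2.04%, below it. The median log2 change of the members was -0.12, against -0.01 over all genes tested.

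Among S phase genes 7 of 15 fell and 0 rose, with a median log2 change of -0.20. An unadjusted p under 0.05 was reached by 11 of the 15, beside 5364 of the 12741 genes tested. Cdc6 had a signal of 1035 and 1131 in the WT DMSO libraries and of 817.9, 834.2 and 815.2 in the WT FICZ libraries. All 3 FICZ libraries lay below both DMSO libraries, and the log2 change was -0.40 ± 0.06 (SE, adjusted p = 0.00166). Mcm3, a subunit of the MCM ring, had 4330 and 4169 with DMSO and 3488, 3006 and 3226 with FICZ, again without overlap (log2 change -0.39 ± 0.07, adjusted p = 0.00284). For Mcm6 the values were 6415 and 6678 with DMSO and 5319, 5204 and 4939 with FICZ, with a log2 change of -0.35 ± 0.06 (adjusted p = 0.00245). Rrm1, the large subunit of the enzyme that makes deoxynucleotides, went from 7422 and 7710 to 6790, 5944 and 5986 (log2 change -0.28 ± 0.07, adjusted p = 0.0136). The other 3 that fell were Mcm7 (-0.27), Mcm4 (-0.24) and Rrm2 (-0.20). The MCM subunits did not all pass the test: Mcm2 and Mcm5 had log2 changes of -0.10 and -0.09, with 95% intervals from -0.27 to 0.07 and from -0.30 to 0.11. Positive log2 changes were measured for Cdt1 (0.23), which helps Cdc6 load the helicase, for Gins2 (0.26) and for thymidine kinase Tk1 (0.15), none of which passed the test. Cdc45, Pcna and Tyms had changes of -0.08, -0.12 and -0.20 and did not pass either. Among the S phase members, the E2F matches given above occurred in Mcm3, Mcm5, Mcm6, Mcm7, Cdc6 and Cdt1. Of these, Mcm3, Mcm6, Mcm7 and Cdc6 fell with FICZ in WT while Mcm5 and Cdt1 had log2 changes of -0.09 and 0.23. Promoters without an E2F match were those of Rrm1 and Rrm2, which fell, and of Mcm2, Cdc45, Pcna, Tk1 and Tyms, which were not called. Mcm4, which fell, and Gins2 had no promoter entry. A link between match and change was not tested.

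Of the 19 G2/M genes, 5 fell and 1 rose, with a median log2 change of -0.08. Cenpe, a kinesin that moves chromosomes to the spindle equator, had 3423 and 3379 with DMSO and 2773, 2451 and 2748 with FICZ. Every FICZ library was below both DMSO libraries, with a log2 change of -0.36 ± 0.08 (adjusted p = 0.00861). Bub1b, the checkpoint kinase BubR1, had 2637 and 2289 with DMSO against 1984, 2072 and 1892 with FICZ (log2 change -0.31 ± 0.07, adjusted p = 0.00821). Tpx2, which activates Aurora A on the spindle, had 4281 and 4152 against 3576, 3265 and 3418 (log2 change -0.30 ± 0.06, adjusted p = 0.00536). Cdc20, the activator of the anaphase-promoting complex, was the member that rose. Its signal was 1965 and 1816 with DMSO and 2373, 2380 and 2235 with FICZ, with a log2 change of 0.30 ± 0.09 (adjusted p = 0.0246). The spindle motor Kif11 (-0.29) and Cdk1 (-0.18) were the other 2 genes that fell. The 13 others had log2 changes between -0.15 for the kinesin Kif20a and 0.13 for Aurora B, Aurkb; the proliferation marker Mki67 was at -0.03 (95% interval -0.27 to 0.21) and Top2a at -0.13 (-0.28 to 0.01).

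Among the regulators 3 of 15 fell and 0 rose. Ccne2 (cyclin E2) had the largest log2 change of the 49 genes in either direction. It had 997.8 and 1236 with DMSO and 712.4, 694.2 and 771 with FICZ, all 3 below both controls, with a log2 change of -0.61 ± 0.10 (adjusted p = 0.00219). Ccne1 (cyclin E1) had 1031 and 1137 with DMSO and 888.7, 695.4 and 889.8 with FICZ (log2 change -0.40 ± 0.11, adjusted p = 0.019). E2f8, an atypical E2F repressor, had 1884 and 2025 against 1835, 1510 and 1656 (log2 change -0.23 ± 0.08, adjusted p = 0.0461). The inhibitors of cyclin-dependent kinases did not pass the test: Cdkn1a (p21) had a log2 change of 0.11 (95% interval -0.08 to 0.29) and Cdkn1b (p27) of 0.00 (-0.19 to 0.20). Nor did the D cyclins Ccnd1 (-0.13) and Ccnd2 (-0.25), the kinases Cdk2 (-0.16), Cdk4 (-0.06) and Cdk6 (-0.06), or the transcription factors E2f1 (-0.17), E2f2 (0.12), E2f7 (-0.23), Foxm1 (0.07) and Mybl2 (-0.23).

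Cdc6, Mcm3, Mcm6 and Ccne2 were called in all 23 alternative analyses of this comparison. Fewer than the 16 members were called without WT DMSO replicate 2 or WT DMSO replicate 3, and fewer of all genes tested as well. Ccne1, Cdc20 and Rrm1 lost their call without either of these 2 libraries. Cenpe, Bub1b, Tpx2 and Kif11 lost it without replicate 2, Mcm4 and Mcm7 without replicate 3, and Cdc20 also without WT FICZ replicate 1. Rrm2, E2f8 and Cdk1 lost their call in 14, 14 and 16 of the 23. Mcm4, Rrm1, Kif11 and Cdc20 also lost theirs with the trend on GC content and length removed, as given below.

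**Figure D2:**
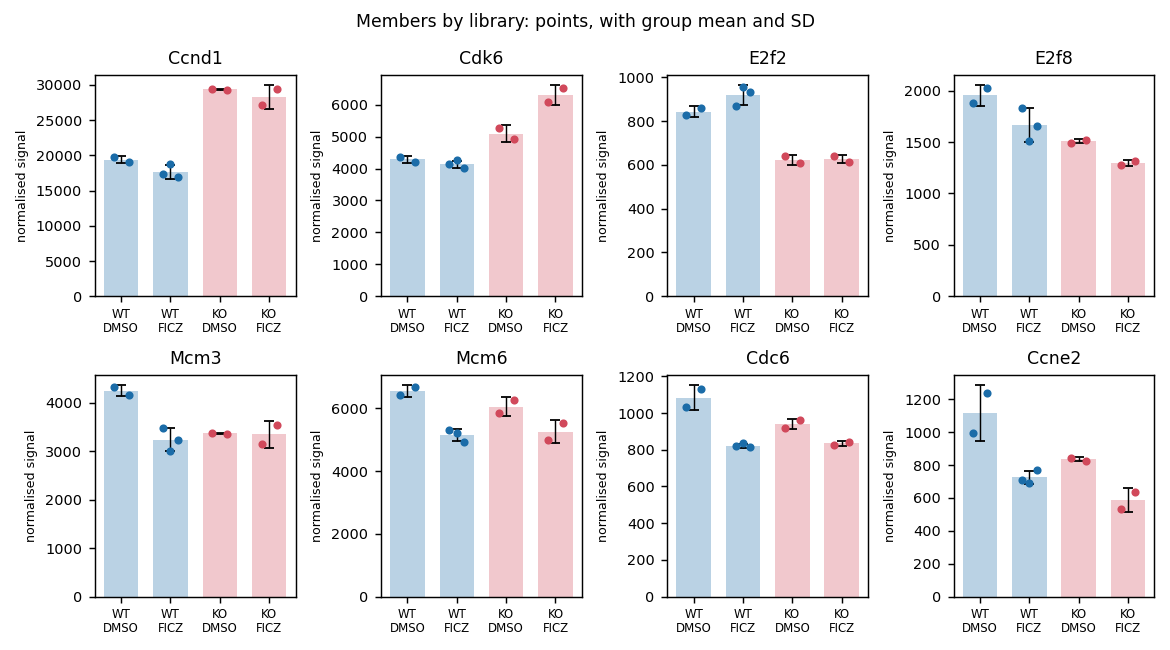
Points are single libraries, bars the group mean of normalised signal and error lines the SD, for 8 of the members. In all 4 AHR KO libraries Ccnd1 and Cdk6 are above, and E2f2 below, all 5 WT libraries; E2f8 is lower in AHR KO with 1 overlapping library; Mcm3, Mcm6, Cdc6 and Ccne2 are highest in the 2 WT DMSO libraries.

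In AHR KO organoids fewer members passed the test, as did fewer of all genes, and the E cyclins fell there too. Of the members 18.4% were called, beside 19.7% of all genes tested, where in WT these shares were 32.7% and 30.8%. The WT comparison had 3 FICZ libraries and the AHR KO comparison 2. With FICZ, 7 of 49 members fell (Ccne1, Ccne2, Cdk1, Kif11, Tpx2, Ccna2 and Rrm1) and 2 rose (Cdt1 and Cdk6), while 9.48% of all genes tested fell and 10.2% rose. The members' median log2 change was -0.10 against -0.01 over all genes. By class, 1 S phase gene rose and 1 fell, 0 G2/M genes rose and 4 fell, and 1 regulator rose and 2 fell. Cdt1 had 853.7 and 996 with DMSO and 1135 and 1266 with FICZ, both FICZ values above both controls (log2 change 0.38 ± 0.09, adjusted p = 0.0176). Rrm1 had 7313 and 7172 against 5676 and 6372 (log2 change -0.27 ± 0.08, adjusted p = 0.036).

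Ccne2 had 845.9 and 827.8 with DMSO and 535.8 and 638.4 with FICZ in these organoids, a log2 change of -0.52 ± 0.12 (adjusted p = 0.014). Ccne1 had 973.9 and 905.1 against 651.4 and 692.4 (log2 change -0.48 ± 0.12, adjusted p = 0.0204). Both E cyclins were thus lower with FICZ in every library, as in WT. Cdk6, a partner of the D cyclins, had 5284 and 4909 with DMSO and 6083 and 6522 with FICZ, a log2 change of 0.31 ± 0.06 (adjusted p = 0.00811), where in WT it had 4363 and 4217 with DMSO and 4127, 4252 and 4013 with FICZ. Among the mitotic genes, Tpx2 had 3710 and 3728 against 2838 and 3206 (log2 change -0.30 ± 0.07, adjusted p = 0.0146). Kif11 had 2771 and 2920 against 2171 and 2455 (log2 change -0.30 ± 0.07, adjusted p = 0.0141). Cdk1 had 2539 and 2501 against 2079 and 2096 (log2 change -0.27 ± 0.07, adjusted p = 0.0229). In each, both FICZ libraries lay below both DMSO libraries, and the lower value was that of AHR KO FICZ replicate 1. The same held for Ccna2 (cyclin A2), with 6356 and 6368 against 5325 and 5808 (log2 change -0.19 ± 0.06, adjusted p = 0.0474). Mcm6, Mcm7 and Mcm4 had log2 changes of -0.21, -0.21 and -0.17 and Mcm3 of -0.01 (95% interval -0.18 to 0.16), none past the test. Most of the 9 members called lost their call without AHR KO DMSO replicate 1, AHR KO DMSO replicate 3 or AHR KO FICZ replicate 1. Fewer of all genes tested were called without each of these libraries as well. Ccne1 and Cdk1 lost their call without any 1 of the 4 AHR KO libraries. Ccne2, Kif11, Tpx2, Rrm1 and Ccna2 lost it without AHR KO DMSO replicate 1, AHR KO DMSO replicate 3 or AHR KO FICZ replicate 1. Cdk6 lost it without AHR KO DMSO replicate 3 or AHR KO FICZ replicate 3, and Cdt1 without AHR KO DMSO replicate 1 or AHR KO FICZ replicate 3. Ccna2 lost its call in 15 and Rrm1 in 11 of the 23 alternatives.

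The FICZ response itself was not shown to differ between genotypes for any of the 49 members. The interaction term (log2 change in WT less the one in AHR KO) was called for 0 members by limma, and for 0.447% of all genes tested in either direction. An unadjusted p under 0.05 was reached by 952 of the 12741 genes tested and by 3 of the 49 members. Those 3 were Cdk6 (log2 difference -0.36 ± 0.08, adjusted p = 0.133), Mcm3 (-0.38 ± 0.10, adjusted p = 0.273) and Cdc6 (-0.22 ± 0.10, adjusted p = 0.634), all with a lower change in WT. Over the alternatives the adjusted p of Cdk6 ran from 0.042, with the trend on GC content and length removed, to 0.521. For the E cyclins the interval of the difference ran from -0.28 to 0.44 for Ccne1 and from -0.45 to 0.25 for Ccne2.

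**Figure D3:**
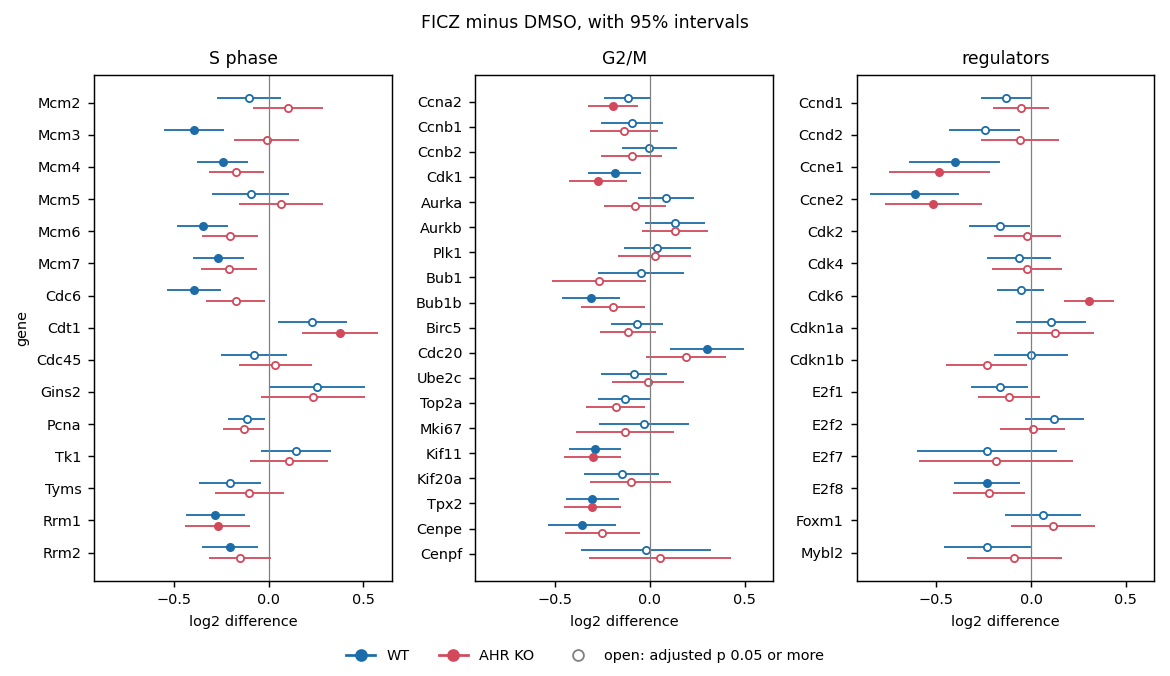
Points are log2 differences, FICZ minus DMSO, with 95% intervals as lines, for each gene in WT (blue) and AHR KO (red), by class. Filled points passed the test (adjusted p under 0.05): 16 in WT and 9 in AHR KO, with Ccne1, Ccne2, Rrm1, Kif11, Tpx2 and Cdk1 filled on the left in both.

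Across genes, the change with FICZ was correlated with the GC content of the transcripts. Over the 49 members, Pearson's r between GC content and the log2 change was 0.46 in WT and 0.55 in AHR KO (Spearman's rho 0.35 and 0.56), and over the 12704 tested genes with a GC value it was 0.37 and 0.41. These are correlations across genes, which are not independent replicates and share the same libraries. Ccne2, the gene with the largest fall, had the lowest GC content of the members, 36.3%, and Cdt1 and Cdc20, with positive changes in both genotypes, had 57.8% and 55.6%. Ccne1, with 52.7%, and Mcm3, with 52.6%, fell although their GC content was above the members' median of 49.3%. For AHR KO against WT the same r was -0.15 under DMSO and -0.06 under FICZ. With the trend of each library on GC content and length removed, 4 S phase genes, 4 G2/M genes and 4 regulators were called lower in WT and 0 members higher. Mcm4, Rrm1, Rrm2, Kif11, Cdk1, E2f8 and Cdc20 lost their call in WT with this step. Some G2/M genes and regulators called with it were not called without it. In AHR KO the count fell from 9 to 4, with Ccne1 and Cdk6 the only members called both with and without this step. Over all genes tested, the share called went from 30.8% to 18.2% in WT with this step and from 19.7% to 5.38% in AHR KO. The part of GC content in these changes was not tested beyond this.

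**Figure D4:**
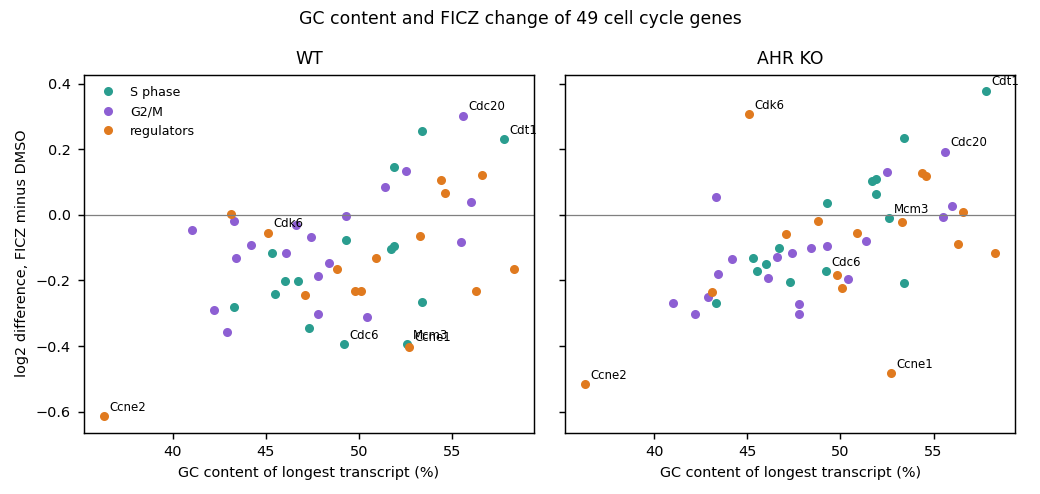
Each point is 1 of the 49 genes, with the GC content of its transcript (%) on the horizontal axis and the log2 difference between FICZ and DMSO on the vertical axis, for WT and AHR KO; colours give the class. Points tend to rise to the right (r of 0.46 and 0.55), with Ccne1 low at 52.7% GC in both panels and Cdk6 high at 45.1% in AHR KO.

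Among the 49 members, the called log2 differences between AHR KO and WT organoids were largest for Ccnd1 and E2f2 under DMSO and for Ccnd1, Cdk6 and E2f2 under FICZ. Cyclin D1 (Ccnd1) and its kinase Cdk6 were higher in the libraries labelled AHR KO under both treatments, and the transcription factors E2f2 and E2f8 lower. Under DMSO 2 of the 49 members were called higher and 4 lower, beside 4.21% and 4.83% of all genes tested. Under FICZ 3 were higher and 7 lower, beside 9.48% and 10.5%. The gene total of Ahr did not follow the labels, while Cyp1a1 under FICZ, given above, did: it was lower in both FICZ-treated libraries of AHR KO than in each of the 3 of WT.

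Ccnd1 had 19710 and 19000 in WT with DMSO, 17370, 18790 and 16900 in WT with FICZ, 29420 and 29290 in AHR KO with DMSO and 27120 and 29480 in AHR KO with FICZ. All 4 libraries labelled AHR KO were above all 5 labelled WT. AHR KO exceeded WT by 0.60 ± 0.07 on the log2 scale under DMSO (fold 1.52, adjusted p = 0.00056) and by 0.68 ± 0.06 under FICZ (fold 1.6, adjusted p = 4.52e-05). Ccnd1 was called in all 22 alternatives in both treatments, with a log2 difference from 0.58 to 0.68 under DMSO and from 0.62 to 0.80 under FICZ. Cdk6, from the values given above, differed by 0.25 ± 0.06 under DMSO (adjusted p = 0.0294) and by 0.61 ± 0.06 under FICZ (fold 1.53, adjusted p = 4.73e-05), again without overlap between genotypes. Its call under FICZ held in all 22 alternatives, and its call under DMSO was lost without either WT DMSO library or either AHR KO DMSO library. Ccnd2 and Cdk4, of the same complexes, did not pass under DMSO (0.06, 95% interval -0.15 to 0.26, and 0.00, -0.18 to 0.18) or FICZ (0.24, 0.05 to 0.43, adjusted p = 0.0712, and 0.04, -0.13 to 0.21).

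E2f2, an activating E2F, had 825.4 and 860.4 in WT with DMSO, 866.3, 954.7 and 932.9 in WT with FICZ, 639.8 and 608 in AHR KO with DMSO and 639.8 and 614.6 in AHR KO with FICZ. The genotypes did not overlap, with log2 differences of -0.43 ± 0.08 (adjusted p = 0.00685) and -0.55 ± 0.07 (adjusted p = 0.00042). E2f8 had 1493 and 1524 in AHR KO with DMSO and 1272 and 1313 with FICZ, all below its 1510 in the lowest WT library except the 1524 of AHR KO DMSO replicate 3, and the log2 differences were -0.37 ± 0.09 (adjusted p = 0.0238) and -0.36 ± 0.08 (adjusted p = 0.00911). Ccne2 had log2 differences of -0.41 (95% interval -0.66 to -0.15, adjusted p = 0.055) and -0.31 (-0.54 to -0.08, adjusted p = 0.0644) that did not pass. E2f1 and E2f7 did not pass either, at -0.10 and -0.17 under DMSO and -0.06 and -0.12 under FICZ. Under DMSO, E2f2 lost its call without WT DMSO replicate 3 or AHR KO DMSO replicate 3, and E2f8, like Mcm3 and Plk1 below, without any 1 of the 4 DMSO libraries.

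Among the mitotic genes, Plk1, a kinase that promotes entry into mitosis, was lower in AHR KO under both treatments. It had 3289 and 3084 in WT with DMSO, 3528, 2998 and 3317 in WT with FICZ, 2473 and 2587 in AHR KO with DMSO and 2411 and 2753 in AHR KO with FICZ, so that no AHR KO library reached any WT library. Its log2 difference was -0.33 ± 0.09 under DMSO (adjusted p = 0.0397) and -0.35 ± 0.08 under FICZ (adjusted p = 0.0121). Under FICZ alone, Aurora A (Aurka) had 2004, 1840 and 1926 in WT and 1469 and 1667 in AHR KO, a log2 difference of -0.30 ± 0.07 (adjusted p = 0.0111). Birc5 (survivin, of the chromosomal passenger complex) had 1851, 1766 and 1850 against 1422 and 1557 (log2 difference -0.29 ± 0.06, adjusted p = 0.00787). Kif11 had 2745, 2698 and 2585 against 2171 and 2455 (log2 difference -0.21 ± 0.06, adjusted p = 0.0352), and Ccna2 was the fifth (-0.20 ± 0.06, adjusted p = 0.0274). Under DMSO the same 4 genes had log2 differences of -0.13, -0.25, -0.20 and -0.13 that did not pass the test. Of the 19 G2/M genes 15 had a negative difference under DMSO and 17 under FICZ, beside 6638 and 6467 of the 12741 genes tested. The 19 genes share the same libraries and are not independent replicates. Without AHR KO FICZ replicate 1, the library in which all 19 lay below their mean, Plk1, Aurka, Birc5, Ccna2, Kif11 and E2f8 lost their call under FICZ. Fewer of all genes tested were called without that library as well. Without AHR KO FICZ replicate 3 still fewer of all genes were called, and of the called members only Tyms lost its call. Kif11 lost its call in 13 of the 22 alternatives, and Ccna2 also without WT FICZ replicate 1.

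Of the 15 S phase genes 1 was called under each treatment. Under DMSO Mcm3 was lower in AHR KO, with 3374 and 3367 against 4330 and 4169 in WT (log2 difference -0.33 ± 0.08, adjusted p = 0.0246). The FICZ change of Mcm3 in WT and this genotype difference share the 2 WT DMSO libraries, which are its highest: the other 7 libraries had 3006 to 3548. Under FICZ its difference was 0.05 (95% interval -0.11 to 0.21). Tyms, thymidylate synthase, was higher in AHR KO under FICZ, with 1863 and 2211 against 1689, 1715 and 1605 (log2 difference 0.28 ± 0.07, adjusted p = 0.0235), and had a difference of 0.18 under DMSO that did not pass. Tyms lost its call without WT FICZ replicate 1, WT FICZ replicate 3 or AHR KO FICZ replicate 3. The members called under DMSO numbered 6, beside 9.05% of all genes tested. With only the 2 compared groups in the fit they numbered 14, beside 12.7%. Leaving out any single WT DMSO or AHR KO DMSO library lowered the count of members, and that of all genes called as well.

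**Figure D5:**
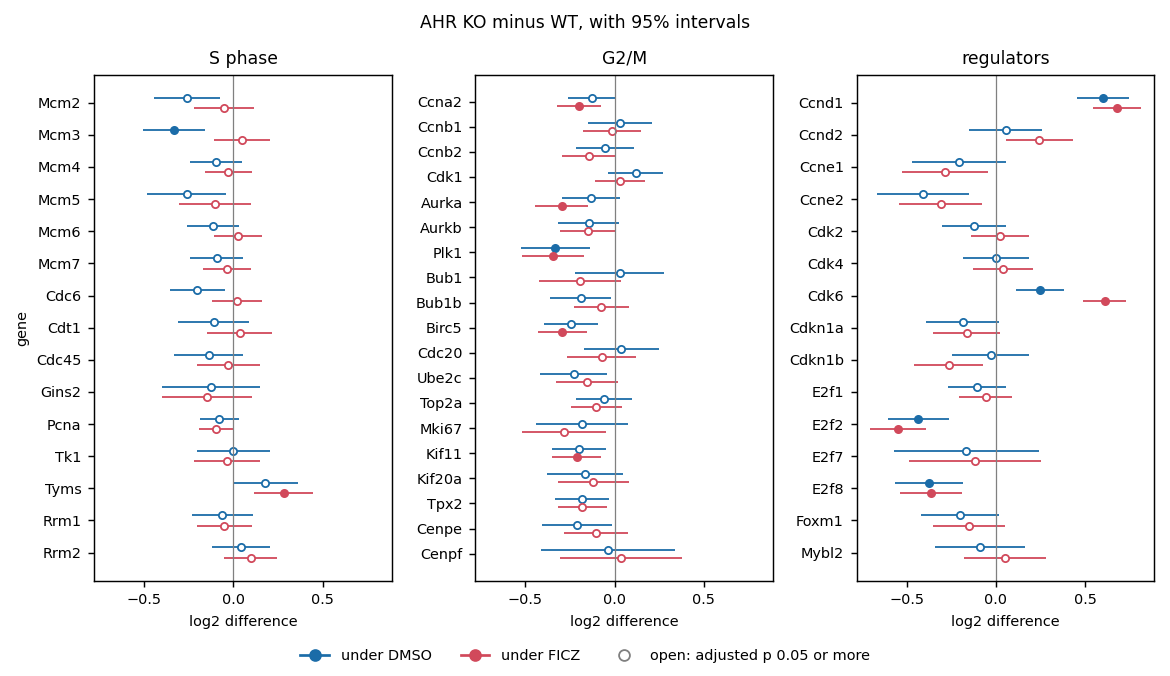
Points are log2 differences, AHR KO minus WT, with 95% intervals as lines, under DMSO (blue) and FICZ (red), by class. Filled points passed the test: 6 under DMSO and 10 under FICZ, with Ccnd1 right and E2f2 and E2f8 left of 0 under both, and Cdk6 at 0.25 under DMSO and 0.61 under FICZ.

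The inhibitor p21, Cdkn1a, was not called in any comparison. It had 3980 and 3168 in WT with DMSO, 3860, 3832 and 3770 in WT with FICZ, 3201 and 3043 in AHR KO with DMSO and 3535 and 3289 in AHR KO with FICZ. The 2 WT DMSO libraries lay at nearly opposite ends of this range, and the genotype difference under DMSO was -0.19 (95% interval -0.39 to 0.02). p21 is the best known target of the tumour suppressor p53, and a list of 15 other p53 targets was therefore set beside it. That list was chosen with earlier results of these data known, so its direction is not independent evidence. Under DMSO 7 of the 15 were higher in AHR KO and 0 lower, beside 4.21% and 4.83% of all genes tested, with a median log2 difference of 0.36 against -0.01 over all genes. Under FICZ 10 were higher and 1, Perp, lower, beside 9.48% and 10.5%. The called genes under DMSO included Trp53inp1 (0.67), Gdf15 (0.65) and Eda2r (0.59), and at the lower end Zmat3 (0.40), Btg2 (0.36), an antiproliferative factor, and Ccng1 (cyclin G1, 0.30). All 7 calls under DMSO were lost without WT DMSO replicate 3 or without AHR KO DMSO replicate 1, and most without AHR KO DMSO replicate 3. Fewer of all genes tested were called without each of these libraries as well. The count of 11 under FICZ fell to 7 without WT FICZ replicate 3, where the share of all genes tested went from 20% to 14.1%. It was also lower without AHR KO FICZ replicate 3, as it was over all genes. With FICZ in WT, 7 of the 15 rose, with Gdf15 (1.19), Bbc3 (0.60) and Phlda3 (0.52) highest, and Eda2r fell (-0.61), beside 15.1% and 15.7% of all genes tested. The count of 8 was 4 with the GC and length trend removed, where the share of all genes tested went from 30.8% to 18.2%. It was also lower without WT DMSO replicate 3, as it was over all genes. In AHR KO 3 rose and 0 fell, beside 10.2% and 9.48%. With that trend removed 0 were called, where the share of all genes tested went from 19.7% to 5.38%. Calls were also lost without AHR KO DMSO replicate 1 or AHR KO FICZ replicate 3, as over all genes.

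A wider list of 136 cell cycle genes without the 49 members was counted in the same way. With FICZ in WT 53 of the 136 (39%) fell and 9 (6.62%) rose, beside 15.7% and 15.1% of all genes tested. By class these were 21 and 0 of 45 S phase genes, 21 and 3 of 56 G2/M genes and 11 and 6 of 35 regulators. Among called S phase genes the lowest log2 changes were those of the chromatin remodeller Hells (-0.90), Rad51ap1 (-0.76), which acts in homologous recombination, and the checkpoint mediator Clspn (-0.69). Among called G2/M genes they were those of the condensin subunit Smc4 (-0.45), the kinesin Kif18a (-0.37) and Ckap2 (-0.35), with separase, Espl1 (0.51), Ccnf (0.26) and the phosphatase Cdc25b (0.25) highest. Among called regulators the checkpoint kinase Chek1 (-0.93), Myb (-0.55) and the pocket protein Rbl1 (-0.34) were lowest, and the inhibitor Cdkn2d (0.62), Fzr1 (0.50) and the kinase Pkmyt1 (0.42) highest. Hells had 4694 and 4585 with DMSO and 2791, 2311 and 2405 with FICZ in WT, and 4014 and 3906 against 2470 and 2743 in AHR KO, lower with FICZ in every library of both genotypes. In AHR KO 35 of the 136 (25.7%) fell and 6 (4.41%) rose, beside 9.48% and 10.2% of all genes tested. The interaction was called for 0 of the 136 by limma, beside 0.447% of all genes. An unadjusted p under 0.05 was reached by 6 of the 136, beside 952 of the 12741 genes tested. With the GC and length trend removed, the share of all genes tested that was called in WT went from 30.8% to 18.2%. The share of the list called, 45.6% before, was then near that of all genes. The count of 62 called in WT was 24 with that step. It was also lower without WT DMSO replicate 2 or without WT DMSO replicate 3, as it was over all genes. In AHR KO the share of all genes tested that was called went from 19.7% to 5.38% with that trend removed. The share of the list called, 30.1% before, was then near that of all genes too. The count of 41 in AHR KO was 8 with that step. It was also lower without AHR KO DMSO replicate 1, AHR KO DMSO replicate 3 or AHR KO FICZ replicate 1, as it was over all genes.

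Between genotypes under DMSO 3 of the 136 (2.21%) were higher and 5 (3.68%) lower in AHR KO, below the 4.21% and 4.83% of all genes tested. The inhibitor locus Cdkn2a, which encodes p16 and p19Arf, was highest, with 238.7 and 234.3 in WT and 394.1 and 493.1 in AHR KO (log2 difference 0.90, adjusted p = 0.00884). It had 313.2, 270.5 and 285.6 in WT and 500 and 713.3 in AHR KO with FICZ, and so did not overlap between genotypes under either treatment. Ccng1 and Btg2, on both lists, were the other 2. Lower were Myb (-0.65), the origin recognition subunit Orc1 (-0.51), Cdca3 (-0.42), the condensin subunit Ncapd2 (-0.40) and DNA ligase 1, Lig1 (-0.32). The count of 8 was lower without any single WT DMSO or AHR KO DMSO library, as was the count over all genes tested. Under FICZ 8 (5.88%) were higher and 14 (10.3%) lower, beside 9.48% and 10.5% of all genes tested. These are 22 in all, and fewer were called without AHR KO FICZ replicate 1, as over all genes.

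Some members share their place in the genome with other expressed genes. Ccnd1 overlaps LTO1, Ccne2 overlaps Ints8, Mcm7 overlaps Cops6 and Ap4m1, Ccna2 overlaps Exosc9 and Cdc20 overlaps Elovl1, each on the opposite strand, and Cdt1 shares its strand with Gm20388. The library kit marked strand, but whether counting used it is not given in the sources used here, so part of the signal of these genes could come from the neighbour. Ccnd1 lies on chromosome 7 from 144929931 to 144939925, Cdk6 on chromosome 5 from 3341485 to 3531008, E2f2 on chromosome 4 from 136172394 to 136196057, Ccne2 on chromosome 4 from 11191351 to 11204779 and Mcm3 on chromosome 1 from 20802968 to 20820312 (GRCm38), all protein-coding genes. Cdk6, E2f2 and Mcm3 overlap no gene with a mean signal of 10 or more.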

How the data were processed

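RNA was taken from 9 colon organoid cultures. Per the labels, the authors mapped reads with STAR 2.5.2a to GRCm38, counted with RSEM 1.2.31 and normalised with DESeq2 1.16.1; the deposited values are a signal (normalised counts, not whole), so depth in reads is unknown and a count model could not be used. Of 48795 identifiers, 48435 (99.3%) matched GENCODE M21.

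limma 3.58.1 (R 4.3.3; lmFit, eBayes with trend) was fitted to log2(signal + 1) for the 12741 genes whose mean signal reached 10, on all 9 libraries with 4 groups, with Benjamini-Hochberg adjustment and a threshold of 0.05, and was tested on simulated data. Fold changes are on that scale and understate changes of low genes. The 49 members, the lists and the tests were chosen with earlier results of these data known. Library values are printed for up to 4 called members per class and comparison with the largest changes, and for other lists up to 3 called genes at either end of each class. GC content is that of the longest transcript. Alternatives changed pseudocount, filter, scaling, libraries in the fit, variance prior, GC and length trend, replicate block, and each library in turn.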

Additional observations from a re-analysis of the deposited data

How the results depend on the processing

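The counts of members called (16 for FICZ in WT, 9 for FICZ in AHR KO, 0 for the interaction, 6 and 10 for AHR KO against WT under DMSO and FICZ) moved by over 1.5 times as follows. For FICZ in WT the count was 10 with the replicate block and the GC and length trend removed. For FICZ in AHR KO it was 4 with the GC and length trend removed, 4 with the GC trend removed and 4 with that block and trend removal together. The matching shares of all genes tested were 5.38%, 5.2% and 4.03%, against 19.7% in the main fit. The interaction count was 1, Cdk6, with the GC and length trend removed. Under DMSO it was 14 with only the groups compared in the fit, where the share of all genes called was 12.7% against 9.05% in the main fit. Leaving out 1 library at a time gave 7 to 15 for FICZ in WT, 1 to 13 for FICZ in AHR KO, 0 to 0 for the interaction, 1 to 8 under DMSO and 5 to 13 under FICZ; with 1 library left in a group, it is assumed to vary like the others. In each comparison of 2 groups, leaving out 1 library of a compared group of 2 lowered the share of all genes called as well. The cause of these movements was not tested. Values of single members under the alternatives were kept for each call and for the interaction of Cdc6, Cdk6 and Mcm3, which was not called. Of these values, 805 kept direction and side of the threshold, 190 lost the call, 1 gained it and 0 reversed. The 805 include 23, 22 and 23 for the interaction of Cdc6, Cdk6 and Mcm3, where a kept side means still not called.

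Same-numbered libraries did not deviate together: the correlation of replicate differences between treatments was 0.05 in WT and 0.03 in AHR KO over all genes tested. The numbers were therefore not treated as pairs. With the replicate block the counts were 14 and 8 for FICZ in WT and AHR KO, 0 for the interaction, 5 under DMSO and 13 under FICZ; with the replicate block by line they were 17, 11 and 0.

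Of all genes called for FICZ in AHR KO, 51.9% were higher, against 63.8% with the same total per library and 35% with the GC and length trend removed; for AHR KO against WT under FICZ the share was 47.5% against 59.7% with the same total. Depth in reads is unknown, and groups of 2 limit what can be called.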
